A study of Mus musculus with 4 samples.

Results

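Cd209a-positive type 2 dendritic cells (DC) were followed among CD45+ immune cells of MC38 tumours, and 787 of the 32396 cells kept, or 2.43%, met the criteria. Cells with fewer than 300 genes or with over 15% mitochondrial UMIs (unique molecular identifiers, the counted transcripts) had been dropped. A member had 2 or more UMIs of Cd209a, a C-type lectin, and 5 or more of H2-Ab1, a chain of MHC class II. Cells were left out with more than 1 UMI of Xcr1 plus Clec9a, any UMI of Cd3e, Cd3d, Ncr1 or Cd79a, 10 or more of the C1q genes, or both Ccr7 and Fscn1. Those measured counts chose the members, so the levels of these genes describe the choice. They were left out of the comparisons with other cells, and where a genotype value of one is given it is a description. The members are called type 2 DC below.

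The series asks what the loss of UFL1, the E3 ligase of the UFM1 conjugation system, does to anti-tumour immunity, and its title places the ablation in T cells. MC38, a mouse colon carcinoma line, was implanted under the skin of 8-week-old mice at 100000 cells. Tumours of day 16 were digested with collagenase, and sorted CD45+ cells were profiled with 10x single-cell RNA-seq from cryopreserved material. The groups are WT and Ufl1 cKO mice, both without treatment, with 2 libraries each. The labels name neither the Cre driver nor the floxed exons, and do not say whether each library is a separate animal, so p-values measure the spread between these libraries only. Library values run from WT replicates 1 and 2 to cKO replicates 1 and 2.

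Type 2 conventional DC are the antigen-presenting cells that mainly prime CD4 T cells. They arise from FLT3-dependent precursors, and the transcription factors IRF4 and KLF4 mark them, while type 1 DC need IRF8 and BATF3. Cells with Cd209a, Clec10a and monocyte genes together are known from inflamed tissue, where type 2 DC and monocyte-derived DC are hard to separate.

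The libraries held 32801 barcodes with 64141857 to 79747752 UMIs each. Members had a median of 12213 UMIs, monocytes 9742, type 1 DC 13600, mature migratory DC 10546.5 and T cells 7463. Among the cells kept, 1793 shared a barcode with a cell of another library, 38 of them members, and 0 barcodes were members in 2 libraries. No doublets were removed for the values below, and 54 members had over 20000 UMIs. cKO replicate 2 stood apart by Xist, which is transcribed from the inactive X chromosome of females, with levels of 0, 0, 0 and 240 CPM (counts scaled to a common library total) in type 2 DC. This difference within the cKO group has no counterpart in the labels.

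Type 2 DC made up 3.44% and 2.29% of the cells in the WT libraries and 2.32% and 1.79% in the cKO libraries, from 250, 214, 180 and 143 cells. WT replicate 1 was highest and cKO replicate 2 lowest, and WT replicate 2 lay between the cKO libraries, so the groups overlapped. The means were 2.86% ± 0.815 (SD, n = 2) in WT and 2.05% ± 0.373 (SD, n = 2) in cKO, a log2 ratio of -0.48. An exact two-sided permutation test gave p = 0.667, where the smallest p that 2 against 2 libraries allow is 0.33. Per type 1 DC there were 3.42, 2.82, 1.8 and 2.65 type 2 DC, without overlap between the groups. Per monocyte there were 0.216, 0.111, 0.146 and 0.0791, with overlap. Without WT replicate 1 the log2 ratio was -0.16, and without WT replicate 2 it was -0.75. A share of sorted cells moves with every other cell type. The levels below come from sums per library, which do not separate fewer members with a transcript from less of it per cell.

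**Figure D1:**
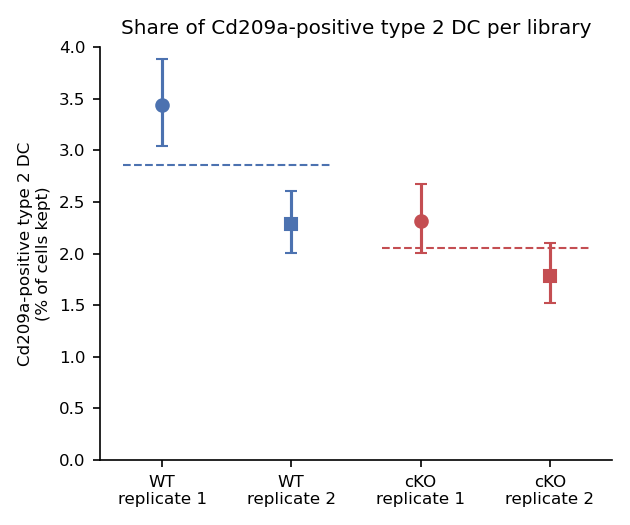
Type 2 DC as a percent of the cells kept, 1 point per library, with 95% Wilson intervals that cover counting error only and dashed lines at the group means. WT replicate 1 (3.44%) stands above the other libraries, which lie between 1.79% and 2.32%.

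The threshold on Cd209a cut through a continuous range: 184 further cells met every other criterion with 1 UMI, and 115 members had exactly 2, while the median member had 9 and the highest 107. Summed over these cells, Clec10a was at 144 raw CPM with 1 Cd209a UMI and 182 with 2, and Kmo at 194 and 161. Ly6c2, a monocyte gene, was at 1061 and 997 raw CPM, and Apoe, a macrophage gene, at 105 and 35.2. The 602 members with 4 or more Cd209a UMIs had 285 raw CPM of Clec10a, 722 of Ly6c2 and 34.8 of Apoe, and the 70 members with 3 had 191, 1318 and 71.2. Clec10a was thus lower and Ly6c2 higher near the threshold, on both sides of it, than in the members with 4 or more.

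The members were set against 3 other classes of the same libraries, defined by raw UMIs: 6133 monocytes (Ly6c2 with Lyz2), 303 type 1 DC (Xcr1 or Clec9a) and 122 mature migratory DC (Ccr7 with Fscn1). Monocytes and type 1 DC had to have no Cd209a UMI, and monocytes also none of Xcr1, Clec9a or Siglech. Migratory DC had no limit on Cd209a. Counts were summed per library and class and fitted together with edgeR's quasi-likelihood test with the library as a block, without the genes of any gate. Levels from this fit are in CPM scaled by TMM. A gene was called with a Benjamini-Hochberg adjusted p of 0.05 or less and at least a 2-fold difference. Against monocytes 706 of 8898 genes were called higher (7.93%) and 692 lower (7.78%). Against type 1 DC the counts were 739 (8.31%) and 544 (6.11%), and against migratory DC 1091 (12.3%) and 1054 (11.8%). The median log2 difference over all genes was 0.04, -0.01 and 0.04. Since the gates chose the classes by a few genes, genes that accompany those in a cell type move with the choice. This includes genes that accompany Cd209a, which members had to have and monocytes and type 1 DC had to lack.

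Clec10a, Mgl2 and Kmo, the markers that go with Cd209a and were not in the gate, were higher in type 2 DC than in the 3 other classes. Clec10a, a lectin for galactose-type sugars, was at 339, 185, 324 and 166 CPM in type 2 DC and at 10.1, 10.1, 12.5 and 11.3 CPM in monocytes. In every library the type 2 DC were above the other classes. The log2 difference was 4.43 ± 0.19 (SE) from monocytes, 3.69 ± 0.27 from type 1 DC and 6.30 ± 0.56 from migratory DC, with edgeR adjusted p of 5.0e-14, 8.4e-10 and 8.5e-09.

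Kmo encodes kynurenine 3-monooxygenase of tryptophan breakdown. It was at 208, 178, 215 and 187 CPM in type 2 DC, 5.74 to 8.70 in monocytes, 101 to 112 in type 1 DC and 31.8 to 89.5 in migratory DC. The differences were 4.77 ± 0.13, 0.89 ± 0.13 and 1.61 ± 0.19 (log2, SE), and the one from type 1 DC was under 2-fold. Other enzymes of the pathway were called higher than in monocytes too, Kynu, the kynureninase, by 2.97 ± 0.14 and Haao by 1.26 ± 0.16. Of 7 tested genes of kynurenine and related amino acid metabolism, 4 were called higher than in monocytes and 2 lower. Against migratory DC 1 was called higher and 3 lower, with a median of -0.79.

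Mgl2, a close relative of Clec10a, was uneven between libraries, at 192, 38.2, 160 and 42.2 CPM in type 2 DC. Both libraries numbered 1 were high and both numbered 2 low, whatever the genotype. Its difference was 6.40 ± 0.20 from monocytes, 4.84 ± 0.31 from type 1 DC and 1.26 ± 0.26 from migratory DC (log2, SE).

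**Figure D2:**
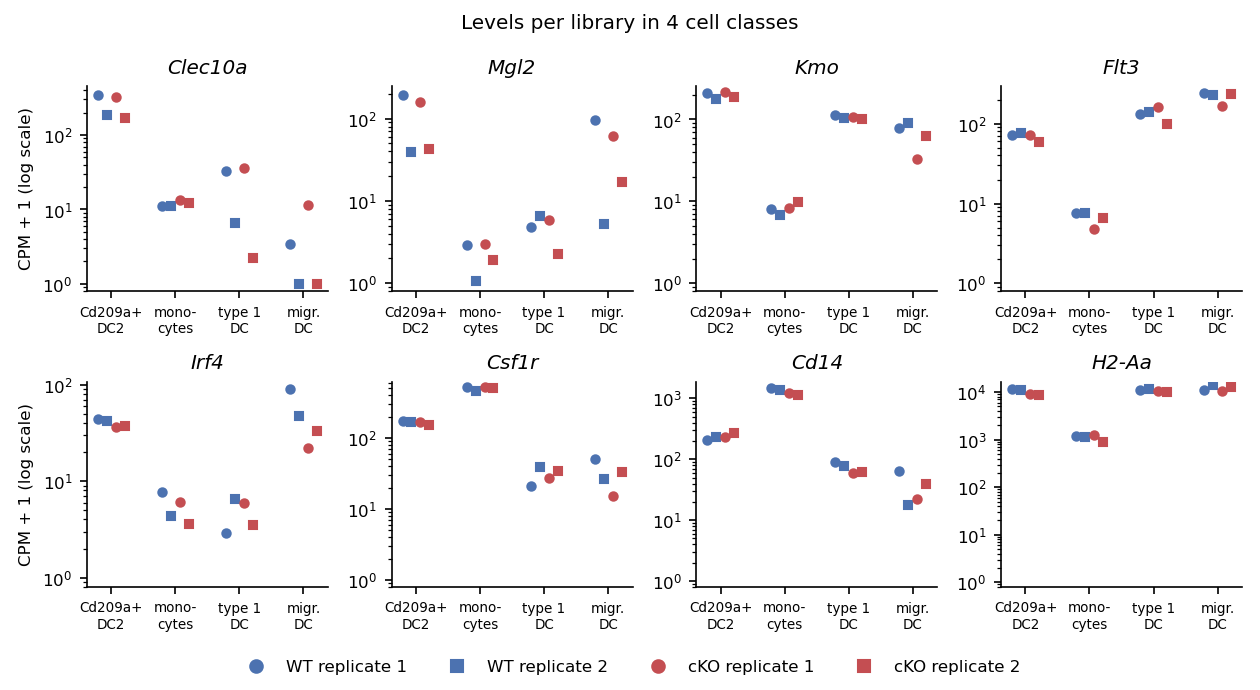
Levels of 8 genes in 4 cell classes, 1 point per library, in CPM scaled by TMM plus 1 on a log axis. Clec10a, Mgl2 and Kmo are high in type 2 DC, Csf1r and Cd14 lie between monocytes and the other DC, and H2-Aa lies far above monocytes in the 3 DC classes.

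Per cell, 58.7% of type 2 DC had a Clec10a UMI, 74.7% a Kmo UMI and 18.6% an Mgl2 UMI. In T cells, which should lack these genes, the shares were 3.34%, 4.58% and 1.69%. Thinned to 3000 UMIs per cell, which left out 4 members, the shares in type 2 DC were 36.4%, 39.2% and 10.9%, and in 1000 thinned T cells 1.3%, 1.5% and 0.8%.

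Of the 17 type 2 DC markers that could be tested, 13 were called higher than in type 1 DC and 0 lower, with a median log2 difference of 2.62. Sirpa, the inhibitory receptor for CD47, was at 115 to 127 CPM in type 2 DC and 7.66 to 20.9 in type 1 DC (3.03 ± 0.18, SE), and the integrin gene Itgam differed by 2.62 ± 0.24. Against monocytes 7 were called higher and 5 lower, the latter being Itgam, Clec4a2, Cd302, Ear2 and Ccl9. Those called higher included Cd209d, of the same lectin family as Cd209a, at 97.5, 92.2, 104 and 52.9 CPM against 0.258 to 0.559 in monocytes. Klrd1, the CD94 chain best known from NK cells, was at 548, 433, 349 and 443 CPM against 7.23 to 10.9 (5.73 ± 0.18). Ccl17, a chemokine for CCR4-bearing T cells, differed by 5.38 ± 0.23. Klrd1 is also a lymphocyte gene, and 45.3% of T cells had a UMI of it against 74.7% of type 2 DC.

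Among the 16 factors and receptors of the conventional DC lineage, 9 were called higher than in monocytes and 0 lower, with a median of 1.60. Flt3, the receptor that drives DC development, was at 71.8, 75.2, 70.9 and 57.7 CPM in type 2 DC and 3.76 to 6.70 in monocytes (3.58 ± 0.15, SE, edgeR adjusted p = 3.3e-14). Zbtb46, a transcription factor of conventional DC, was at 27.8 to 41.8 against 0.234 to 0.944 CPM (5.98 ± 0.20). Kit, the stem cell factor receptor, was at 20.9 to 24.1 against 0.234 to 0.858 CPM (5.43 ± 0.22). The groups of libraries did not overlap for any of these. Compared with type 1 DC, Kit was called lower (-1.29 ± 0.16), and Flt3 (-0.95 ± 0.14) and Zbtb46 (-0.24 ± 0.16) differed by under 2-fold.

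The factors of the DC subsets divided accordingly. Irf4 was at 42.7, 40.7, 35.4 and 35.9 CPM in type 2 DC, 2.55 to 6.70 in monocytes (3.18 ± 0.19, SE) and 1.91 to 5.50 in type 1 DC (3.37 ± 0.37). Klf4 was higher than in type 1 DC by 1.25 ± 0.21 and not called against monocytes (-0.16 ± 0.18). All 13 tested type 1 DC markers were called lower in type 2 DC than in type 1 DC, with a median of -3.71. They included Irf8 at 114 to 168 against 1454 to 1612 CPM (-3.53 ± 0.15), Batf3 at 43.9 to 66.1 against 212 to 265 (-2.11 ± 0.12) and Itgae, the CD103 chain, at 6.31 to 10.4 against 138 to 212 (-4.34 ± 0.17). Xcr1 and Clec9a separated the gates, so a difference in the genes that go with them was part of the choice.

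Type 2 DC also carried monocyte transcripts, several at levels between those of monocytes and of the other DC. All 16 tested monocyte markers had negative differences from monocytes and 14 were called, with a median of -3.05. Compared with type 1 DC, 8 were called higher and 0 lower, and with migratory DC 7 and 0. Csf1r, the receptor of the growth factor M-CSF, was at 173, 169, 165 and 154 CPM in type 2 DC, 456 to 519 in monocytes (-1.59 ± 0.11, SE) and 20.1 to 38.5 in type 1 DC (2.51 ± 0.17). Cd14, the co-receptor for bacterial lipopolysaccharide, was at 204, 228, 233 and 274 CPM, against 1132 to 1501 in monocytes (-2.47 ± 0.14) and 59.5 to 90.0 in type 1 DC (1.73 ± 0.16). Ccr2, the receptor that recruits monocytes, was at 339, 221, 278 and 269 CPM. It was higher than in migratory DC by 3.35 ± 0.26, and its difference from monocytes was under 2-fold (-0.77 ± 0.13).

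Another monocyte gene was near the level of type 1 DC. Chil3, a chitinase-like protein, was at 14.5, 24.5, 2.08 and 59.2 CPM in type 2 DC and 1012 to 1335 in monocytes (-5.77 ± 0.42, SE), and from type 1 DC it differed by -0.01 ± 0.59. Of 9 tested macrophage markers 7 were called lower than in monocytes and 1, the mannose receptor Mrc1, higher. Apoe was at 31.3, 42.4, 42.9 and 39.8 CPM against 850 to 1301 (-4.89 ± 0.24). The limit on C1q UMIs held for both classes.

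UMIs of both kinds of lineage gene were found together in part of the cells. A UMI of Flt3 or Zbtb46 was found in 64.7% of type 2 DC, one of Fcgr1 or Cd14 in 82.7%, and both in 50.7%. In monocytes the first share was 4.83% and the second 98.1%. In type 1 DC they were 77.9% and 34.7%, with both in 28.4%. In T cells they were 4.38% and 26.9%, and UMIs of both kinds were found in 2.60%. The T cell gate set no limit on myeloid genes, and macrophage genes summed to 2852 raw CPM in T cells. Free RNA and doublets are therefore not told apart in the T cell shares. Thinned to 3000 UMIs, 27.2% of type 2 DC had a UMI of the first pair and 56.1% of the second, against 0.7% and 20% of T cells. Both kinds were then found in 13.03% of type 2 DC, 6.85% of type 1 DC and 0.2% of T cells. The part of doublets in these shares was not tested.

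Markers of other cells were low in type 2 DC. T cell genes summed to 10.3 to 17.9 raw CPM per library against 3465 in T cells, B cell genes to 2.45 to 7.55 and neutrophil genes to 3.06 to 18.6. All 6 mast cell and basophil genes were at 0, as were Ms4a1, Ly6g, Krt8 and Col1a1. The gate itself held Cd3e, Cd3d, Ncr1 and Cd79a at 0. Macrophage genes summed to 127 to 346 raw CPM against 1779 in monocytes, and monocyte genes to 4956 to 6666 against 29537.

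MHC class II genes were mostly above monocytes and close to type 1 DC. Of 13 tested, 9 were called higher than in monocytes and 1, the protease gene Lgmn, lower, with a median of 2.69. Against type 1 DC the median was 0.12. Against migratory DC 3 were called higher and 3 lower, with a median of -0.28. The class II chain H2-Aa was at 11572, 10850, 9235 and 8723 CPM in type 2 DC, 876 to 1270 in monocytes (3.17 ± 0.11, SE) and 9904 to 11717 in type 1 DC (-0.10 ± 0.10, edgeR adjusted p = 0.44). The DO genes, whose products restrain peptide loading, differed from monocytes by 4.84 ± 0.19 for H2-Oa and 5.05 ± 0.15 for H2-Ob. The gate asked for H2-Ab1 in the DC classes and not in monocytes. Ctss, the protease that trims the invariant chain, was the 1 gene of the list called against type 1 DC (1.17 ± 0.12), and it was not called against monocytes (-0.75 ± 0.12).

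Costimulatory ligands were above type 1 DC and below migratory DC. Against type 1 DC 8 of 15 were called higher and 0 lower, with a median of 1.10. Against migratory DC 3 were higher and 8 lower, with a median of -1.05. Tnfsf9, the ligand of 4-1BB, was at 267, 173, 172 and 241 CPM in type 2 DC, 53.7 to 70.4 in monocytes (1.79 ± 0.12, SE) and 26.1 to 48.9 in type 1 DC (2.44 ± 0.17). Cd80, a ligand of CD28, was at 51.4, 40.3, 26.3 and 40.3 CPM, against 4.79 to 12.2 in type 1 DC, where it was called higher, and 162 to 181 in migratory DC (-2.13 ± 0.18). Cd274, which encodes PD-L1, was at 57.9, 44.5, 75.5 and 46.1 CPM in type 2 DC and 389 to 639 in migratory DC (-3.05 ± 0.16). For Cd80 and Cd274 the type 2 DC libraries thus lay below every migratory DC library.

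Pathogen sensors and cytokines were mostly lower than in monocytes. Of 17 tested lectin and pattern receptors 12 were called lower and 1 higher, with a median of -2.33. Clec4e, the receptor for mycobacterial cord factor, was at 18.3, 13.7, 17.9 and 32.0 CPM against 315 to 440 (-4.17 ± 0.18, SE), and the RNA sensor Tlr7 at 3.71, 9.97, 5.00 and 5.82 against 51.0 to 56.9 (-3.15 ± 0.22). Of 12 cytokine genes 8 were called lower and 0 higher, among them Il1rn, the antagonist of interleukin 1 (-2.89 ± 0.21). Il1b itself was at 1922, 2438, 1748 and 2090 CPM in type 2 DC and 2456 to 2844 in monocytes, and was not called (-0.41 ± 0.22, edgeR adjusted p = 0.13).

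Chemokines split by kind. The monocyte attractants Ccl2, at 97.8, 88.9, 113 and 68.9 against 1258 to 1792 CPM (-4.07 ± 0.43, SE), and Ccl12 (-5.07 ± 0.40) were among 8 of 14 called lower than in monocytes. Ccl17 and Ccl22, ligands of CCR4, were the 2 called higher. Ccl22 was at 3.40, 1.66, 2.08 and 2.43 CPM in type 2 DC, against 209 to 810 in migratory DC. Cxcl10, an interferon-induced ligand of CXCR3, was at 1165, 1272, 1428 and 2214 CPM, not called against monocytes (-0.13 ± 0.24) and higher than in type 1 DC by 2.60 ± 0.26. Of 6 chemokine receptors 5 were called higher than in type 1 DC, such as Ccr1 (2.54 ± 0.27), and Cxcr3 was called lower.

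Interferon-induced and cell cycle genes marked type 2 DC off from type 1 DC. Of 22 genes of the type I interferon response 11 were called higher than in type 1 DC and 0 lower, with a median of 1.07. Ifit3, an interferon-induced antiviral gene, was at 380, 408, 279 and 446 CPM against 23.9 to 205 (1.85 ± 0.30, SE), and Rsad2, another, at 257, 280, 241 and 485 against 51.7 to 169 (1.71 ± 0.14). Of 18 cell cycle genes 15 were called lower and 0 higher, with a median of -2.83. Top2a, a topoisomerase of dividing cells, was at 4.64, 7.48, 3.34 and 5.34 CPM in type 2 DC and 39.8 to 68.5 in type 1 DC (-3.50 ± 0.25), and Mki67 at 7.74, 8.31, 5.42 and 8.73 and 28.6 to 59.5 (-2.61 ± 0.29). The other classes differed less. For the interferon list the median was -0.44 against monocytes, with 21 of 22 negative and 2 called lower, and 0.67 against migratory DC. For the cell cycle list it was 0.55 against monocytes, with 4 called higher, and -0.15 against migratory DC, with 1 called lower.

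Against migratory DC, all 13 tested markers of the mature state were called lower in type 2 DC, with a median of -5.69. Ccl22 differed by -7.58 ± 0.20 (SE) and Il4i1, an enzyme that oxidises amino acids, by -4.76 ± 0.26. Relb, the NF-kappaB factor of DC maturation, was at 89.8, 68.5, 77.6 and 77.1 against 580 to 860 CPM (-3.22 ± 0.12). Il12b, a chain of interleukins 12 and 23, was at 519 to 753 CPM in migratory DC, while among the type 2 DC libraries WT replicate 1 alone had counts, at 0.309 CPM. Flt3 was called lower in type 2 DC as well (-1.67 ± 0.17). The migratory class rested on 26 to 40 cells per library.

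**Figure D3:**
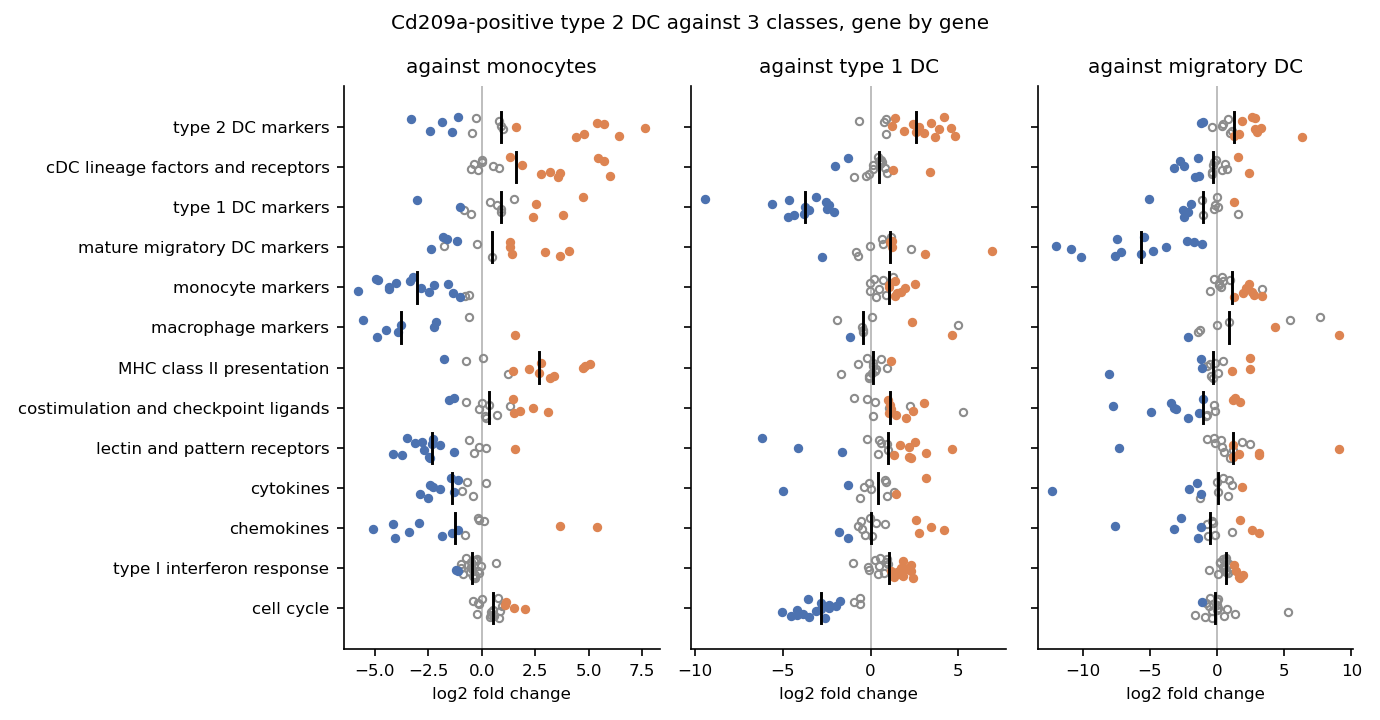
Log2 fold changes of single genes in type 2 DC against monocytes, type 1 DC and mature migratory DC, grouped by gene list. Filled points were called higher (orange) or lower (blue), open points were not called, and bars mark list medians, which for monocyte markers are -3.05 against monocytes and 1.06 against type 1 DC.

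Large differences also lay outside the lists. Cd7, an immunoglobulin-family protein of lymphocytes and some DC, was at 431, 561, 445 and 554 CPM in type 2 DC, 3.76 to 6.44 in monocytes (6.57 ± 0.22, SE), 16.3 to 95.6 in type 1 DC (3.27 ± 0.22) and 22.3 to 124 in migratory DC (3.11 ± 0.28). It was thus above the 3 other classes in every library. Apod, a lipid carrier of the lipocalin family, differed from monocytes by 4.94 ± 0.35. Dab2, an endocytic adaptor, was higher than in type 1 DC by 3.48 ± 0.25, and so were the membrane genes Tmem176a (3.86 ± 0.17) and Tmem176b (3.66 ± 0.15). Largest among genes lower than in monocytes were, beside those above, Mgst1 (-5.19 ± 0.21), F10 (-4.94 ± 0.20), Pla2g7 (-4.93 ± 0.21), Thbs1 (-4.85 ± 0.32) and Slpi (-4.73 ± 0.32). Epcam, an adhesion protein of epithelia and some skin DC, was at 15.2, 9.97, 24.6 and 14.1 CPM against 0.410 to 1.04 in monocytes (4.57 ± 0.25), with the keratins Krt8 and Krt19 at 0 UMIs in type 2 DC.

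The type 2 DC were not uniform. Clustering of the 787 cells without the gate genes gave 7 groups, described here by leading genes and without a test, since the cells were clustered on the same counts. Cluster 1, with 279 cells, was led by immediate early and heat shock genes such as Atf3 (2765 against 1467 raw CPM in the other members), Fos (3466 against 1940) and Hspa1a (9892 against 6111). Warm enzymatic digestion is known to induce such genes, and its part in this cluster was not tested. Cluster 2 (153 cells) was led by Tppp3, and had the highest Flt3 (125 raw CPM) and the highest Cd14 (412) of the 7.

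Cluster 3 (80 cells) had Cyp7b1, an oxysterol hydroxylase, at 350 against 11.0 raw CPM in the other members. Il4i1 was at 237 against 10.1, Apod at 534 against 48.1, Cd209d at 430 against 48.0 and the related Cd209e at 118 against 9.65. Irf4 (111 raw CPM) and Kmo (337) reached their highest levels over the clusters here. Siglech, a plasmacytoid DC marker, was at 45.1 raw CPM, with a UMI in 33.75% of these cells.

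Cluster 4 (82 cells) had the most H2-Aa, at 14787 raw CPM, and H2-Oa stood at 416 against 108 in the other members and H2-DMb2 at 803 against 243. Mgl2 was highest here at 290 raw CPM, and Ly6c2 lowest at 220. Il1r2, the decoy receptor of interleukin 1, was at 934 against 234. Its cells had a median of 16371 UMIs, the most of the 7 clusters.

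Clusters 5 (109 cells) and 6 (75 cells) were led by interferon-induced genes. In cluster 5 Rsad2 was at 1372 against 129 raw CPM in the other members and Cxcl10 at 6310 against 667, with the highest Fcgr1 (595). Cluster 6 was led by Ly6a (3226 against 1441) and had the least Il1b of all clusters (310 raw CPM) and the least Cd14 (21.9).

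Cluster 7 held 9 cells with Siglech at 1611 raw CPM, and 4 plasmacytoid DC markers were among its 10 leading genes. These cells were plasmacytoid DC-like and met the rule all the same. Their removal, chosen after seeing the data, left the log2 ratio of shares at -0.48.

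**Figure D4:**
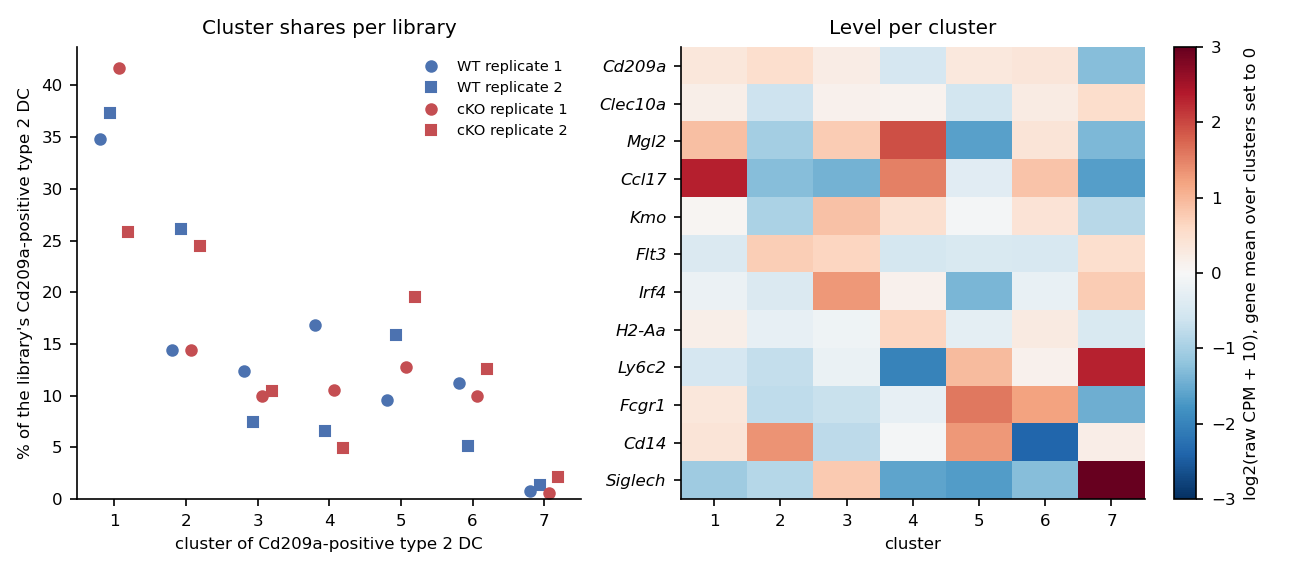
Left, the percent of each library's type 2 DC in each of 7 clusters, 1 point per library; right, levels of 12 genes per cluster as log2(raw CPM + 10) with the mean over clusters set to 0, colours ending at -3 and 3. Cluster 4 held 16.8% and 10.6% of type 2 DC in the libraries numbered 1 and 6.54% and 4.90% in those numbered 2, and Siglech is highest in cluster 7.

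Clusters 2, 4 and 5 were uneven over libraries by replicate number, as was cluster 7 with its 9 cells. Cluster 4 took 16.8%, 6.54%, 10.6% and 4.90% of each library's type 2 DC, and cluster 2 14.4%, 26.2%, 14.4% and 24.5%. The interferon-led cluster 5 took 9.6%, 15.9%, 12.8% and 19.6%. No test was made. In the fit of type 2 DC alone, Ccl17 was at 106, 28.5, 112 and 18.5 CPM and Clec10a at 337, 184, 325 and 167, with the same alternation as Mgl2. Cells with an Mgl2 UMI made up 26.0%, 8.88%, 26.1% and 10.5% of type 2 DC, at median depths of 12274, 11352.5, 12438 and 13468 UMIs over all members. Within WT replicate 1, the 65 cells with an Mgl2 UMI had 334 raw CPM of Ccl17 and 543 of Clec10a, and the 185 without had 12.1 and 250. In cKO replicate 1 these values were 326 and 511 against 16.1 and 237. In cKO replicate 2 the 15 cells with an Mgl2 UMI had 0 Ccl17. What the replicate numbers stand for is not in the labels.

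Ufl1, the targeted gene, was at 14.5, 9.93, 15.5 and 18.9 CPM in type 2 DC, with both cKO libraries above both WT libraries (log2 difference 0.46 ± 0.27, SE, edgeR adjusted p = 1.00). The title places the ablation in T cells, and counts over a whole gene need not show the removal of exons, so this level checks no label. Of the other genes of the system, Ufm1, Ufc1, Ddrgk1 and Cdk5rap3 overlapped between the groups, and Ufsp2 (37.9, 34.3, 47.2 and 40.8 CPM) and Odr4 (15.1, 14.9, 15.9 and 16.5) did not.

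No gene differed between genotypes in type 2 DC past the threshold. edgeR's quasi-likelihood test on sums per library called 0 of 8699 genes (0%) with the smallest adjusted p at 1.00, 251 genes had an unadjusted p under 0.05, and DESeq2 called 0. In 15.5% of all genes both cKO libraries lay above both WT libraries, and in another 15.5% below. A positive difference was found in 49.4% of all genes. Gene groups are therefore given by values and counts alone, to be read beside these shares.

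Class II genes had mostly lower values in cKO. Without H2-Ab1, the difference was negative in 10 of 12, both cKO libraries were below both WT libraries in 7 and above them in 1, and the list's median was -0.19 against -0.00 for all genes. H2-Aa was at 11509, 10801, 9261 and 8735 CPM (-0.31 ± 0.14, SE), Cd74, the invariant chain, at 33208, 31028, 29030 and 26903 (-0.20 ± 0.16) and H2-Oa at 192, 145, 143 and 96.7 (-0.49 ± 0.20). Each edgeR adjusted p was 1.00. Ciita, the master regulator of these genes, was at 102, 95.5, 132 and 94.7 CPM and overlapped. H2-Ab1 belongs to the gate, is not in these counts and was at 9757, 8351, 8076 and 7202 CPM. The share of cluster 4, which had the highest H2-Aa, also differed between libraries, and its part in these values was not tested.

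Interferon gamma response genes had mostly higher values in cKO. In 14 of 19 the difference was positive and the cKO libraries lay above the WT libraries in 8 of 19 and below them in 2, and the median was 0.23. In the fit with the other classes, where the scaling differs, 6 of 19 were higher in this way, against 14.7% of all genes. In monocytes it was 14 of 19, against 18.9%, so the higher values were not particular to type 2 DC. Igtp, a GTPase of cell-autonomous defence, was at 81.9, 81.9, 109 and 113 CPM (0.43 ± 0.13, SE), and Irgm1, of the same family, at 162, 211, 217 and 267 (0.38 ± 0.17). Gbp4 was at 24.9, 27.3, 46.4 and 32.5 CPM (0.61 ± 0.21). Each edgeR adjusted p was 1.00.

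The endoplasmic reticulum stress list, followed because UFM1 conjugation acts at that organelle, had 13 of 16 positive differences, 7 of 16 with both cKO libraries above both WT libraries and 0 below, and a median of 0.11. In the fit with the other classes, where the scaling differs, it was 4 of 16, against 14.7% of all genes. Its chaperone Pdia4 was at 65.6, 55.8, 82.8 and 84.0 CPM (0.45 ± 0.15, SE, edgeR adjusted p = 1.00), and Hspa5, the main chaperone of the organelle, at 845, 907, 911 and 982.

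The type 2 DC markers without Cd209a had 14 of 17 negative differences and a median of -0.09. In 1 of the 17 both cKO libraries were below both WT libraries, against 15.5% of all genes. Cd209a, which chose the members, was at 1027, 1043, 1106 and 939 CPM, Kmo at 207, 177, 215 and 187 and Mgl2 at 191, 38.0, 161 and 42.3. Of the 16 lineage genes 12 had negative differences, with a median of -0.12. Both cKO libraries were below both WT libraries in 6 and above them in 2, against 15.5% of all genes each way. Flt3 was at 71.4, 74.9, 71.1 and 57.8 CPM (-0.18 ± 0.15, SE). In the fit with the other classes, 7 of the 16 were lower in this way in type 2 DC, against 16.7% of all genes. In monocytes it was 6 of 16, against 15.1%, so the lower values were not particular to type 2 DC.

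Among genes with at least 20 CPM on average, the smallest unadjusted p values belonged to the following 10, each with an edgeR adjusted p of 1.00. Their libraries did not overlap between the groups, which goes with a choice by p on these same libraries. Cyp7b1, which led cluster 3, was at 40.6, 26.5, 63.1 and 61.2 CPM (0.87 ± 0.20, SE). Cluster 3 itself took 12.4%, 7.48%, 10.0% and 10.5% of the cells. Egr2, an activation-induced factor and a leader of cluster 1, was at 124, 119, 74.4 and 83.6 CPM (-0.62 ± 0.14). Hcar2, Naa15, Nfatc3 and Mdm2 had differences of 0.77, 0.63, 0.71 and 0.56, and Arl5c, Ninj1, Cenpa and Krt80 of -0.77, -0.63, -0.64 and -0.54. Of the lists, Tbx21, which encodes T-bet and marks a subset of type 2 DC, was at 5.85, 8.68, 15.1 and 18.9 CPM (1.24 ± 0.31) and the monocyte gene Vcan at 5.23, 3.31, 11.7 and 14.6 (1.57 ± 0.36). Neither overlapped. In the monocyte list as a whole both cKO libraries were above both WT libraries in 3 of 18 genes and below them in 1, against 15.5% of all genes each way.

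The genotype effect in type 2 DC was set against that in monocytes of the same libraries by an interaction term in edgeR with the library as a block. Of 10715 genes 5 were called lower (0.0467%) and 0 higher, and 663 had an unadjusted p under 0.05. The 5 were Ifit2, Ifit3, Ifit1bl1, Ly6a and Ccl7. Ly6a and Ifit1bl1 are outside the lists and are named, with their values seen, because the count is small. In the levels below, the classes were normalised together.

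Ifit3 was at 371, 445, 540 and 781 CPM in monocytes and at 380, 408, 279 and 446 CPM in type 2 DC. The cKO libraries were thus above the WT libraries in monocytes and overlapped with them in type 2 DC. They were also above in type 1 DC (23.9, 69.2, 170 and 205 CPM) and in migratory DC (79.3, 29.8, 95.3 and 260). The difference of the 2 effects was -0.82 ± 0.11 (log2, SE, edgeR adjusted p = 0.0084).

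Ly6a, the interferon-inducible surface protein Sca-1, was at 456, 576, 712 and 905 CPM in monocytes and at 1564, 1804, 1403 and 1760 CPM in type 2 DC, with a difference of effects of -0.72 ± 0.10 (log2, SE, edgeR adjusted p = 0.0084). Ifit2 was at 216, 280, 343 and 509 CPM in monocytes and 218, 272, 210 and 312 in type 2 DC (-0.67 ± 0.11, edgeR adjusted p = 0.04). Both genes separated the genotypes in monocytes and not in type 2 DC. For Ifit1bl1 the difference was -1.39 ± 0.21 (edgeR adjusted p = 0.019).

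Ccl7, a monocyte attractant, had another pattern. It was at 54.5, 9.56, 1.25 and 4.85 CPM in type 2 DC and 290, 97.6, 188 and 130 in monocytes, a difference of effects of -3.11 ± 0.44 (log2, SE, edgeR adjusted p = 0.0088). WT replicate 1 was high in both classes. Without WT replicate 1 the edgeR adjusted p was 0.86 for Ccl7, 0.64 for Ifit1bl1, 0.28 for Ifit2 and 0.13 for Ifit3, while for Ly6a it was 0.044. The log2 differences were then -2.40, -1.04, -0.65 and -0.74. For Ifit2 the edgeR adjusted p was 0.056 without cKO replicate 1 and 0.069 without cKO replicate 2. It was 0.16 with a Cd209a minimum of 3, 0.1 in cells of 3000 to 20000 UMIs and 0.062 without the plasmacytoid DC-like cluster. Ifit1bl1 was at 0.084 with that Cd209a minimum. DESeq2 called Ifit3 and Ly6a, and gave adjusted p of 0.053 for Ifit2, 0.063 for Ifit1bl1 and 1.00 for Ccl7.

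The type I interferon list as a whole lay on the same side. All 22 genes had a negative difference of effects, 2 of them called, with a median of -0.35, whereas 50.3% of all genes were positive and their median was 0.00. In monocytes 19 of 22 genes had both cKO libraries above both WT libraries, against 18.9% of all genes there. In type 2 DC it was 2 of 22, against 14.7% of all genes. In the fit of type 2 DC alone 18 of the 22 had a positive genotype difference, against 49.4% of all genes. The list's median there was 0.12, so most of its genes leaned the same way as in monocytes. Summed over the list, monocytes had 7049, 8629, 9710 and 12874 CPM and type 2 DC 5362, 6687, 5241 and 7438. In type 2 DC both libraries numbered 2 were above both numbered 1, as for the share of cluster 5, led by interferon-induced genes. The part of that cluster in these values was not tested. The sums were 2866, 3414, 4205 and 5398 CPM in type 1 DC and 3663, 2411, 4651 and 6627 in migratory DC. In both classes the cKO libraries thus lay above the WT libraries. Neither class was in the interaction. The interferon gamma list had 17 of 19 negative differences of effects with a median of -0.19, and the class II list 12 of 12 with a median of -0.15, and 0 genes of either were called. The sums held 1985948 to 3266437 UMIs per library in type 2 DC and 11407552 to 21003799 in monocytes.

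**Figure D5:**
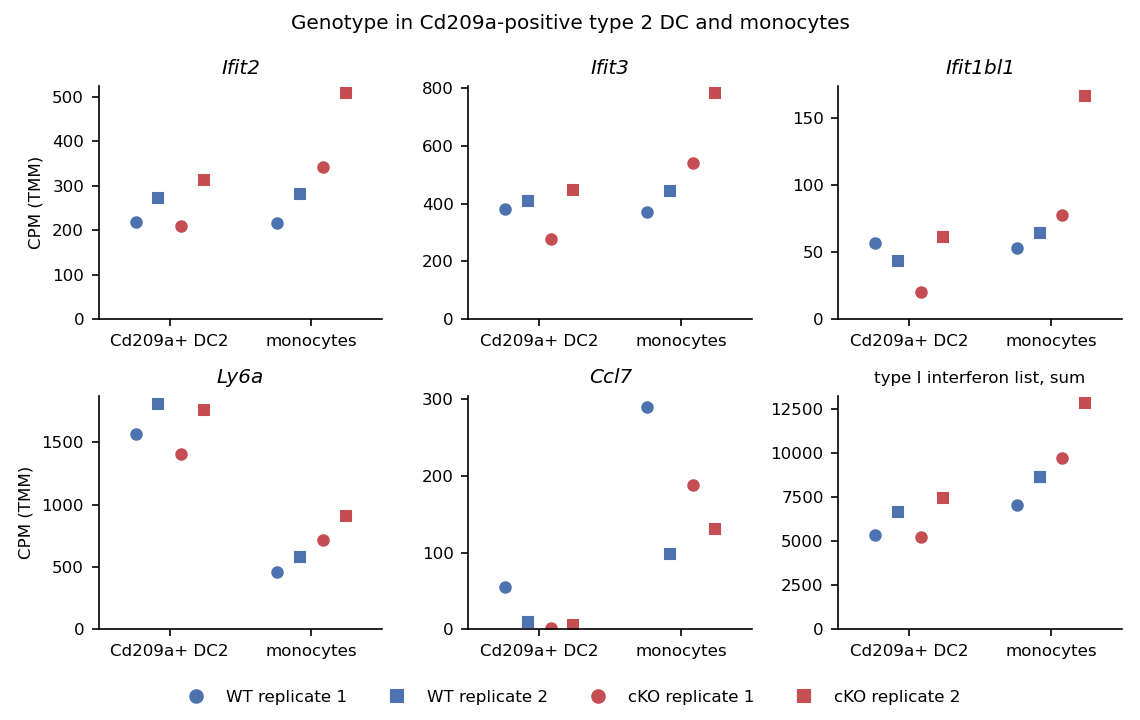
Levels in CPM scaled by TMM of the 5 genes whose genotype effect differed between type 2 DC and monocytes, and the sum of 22 type I interferon genes, 1 point per library. In monocytes cKO libraries lie above WT libraries for Ifit2, Ifit3, Ifit1bl1, Ly6a and the sum, while in type 2 DC the genotypes overlap for all of these; Ccl7 is high in WT replicate 1.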

How the data were processed

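Single-cell RNA-seq of sorted CD45+ cells from 4 MC38 tumour libraries was analysed. The authors deposited raw UMI counts per gene and cell, made with Cell Ranger 6.1.1 per the file headers. The submitters' processing notes also name CASAVA 1.8 and Seurat, and the genome build is not given in the sources used here. From the counts, cells with at least 300 genes and no more than 15% mitochondrial UMIs were kept, which removed 405 of 32801 barcodes. Libraries held 64141857 to 79747752 UMIs, and intervals cover counting error only. Scrublet's automatic threshold called 0 doublets, so it had not worked and no cell was removed. An alternative dropped the 2117 cells with the highest scores (0.8% per 1000 cells of a library), 37 of them members.

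Type 2 DC and the other classes were set by raw UMIs of their gate genes. The members and gene lists were chosen with earlier results of these data known. Counts were summed per library and class and tested with edgeR 4.0.16 (R 4.3.3; TMM, filterByExpr, quasi-likelihood, Benjamini-Hochberg over all genes tested). DESeq2 1.42.0, other size factors, no low-count filter, doublet removal, a Cd209a minimum of 3, cells of 3000 to 20000 UMIs, each library left out and a replicate block were the alternatives, and the removal of the plasmacytoid DC-like cluster was chosen after seeing the data. For the share, a Cd209a minimum of 1, at most 10% mitochondrial UMIs and a denominator of cells with 5 or more H2-Ab1 UMIs were also run. Members were clustered in scanpy 1.11.5 (Python 3.11.15; 1000 variable genes, 20 components, Leiden resolution 0.5).

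Genes named were list members, the 8 called genes with the largest fold change in each direction per class comparison among those with 100 CPM or more in the higher class, and the 5 with the smallest p in each direction for genotype among those with 20 CPM or more. Clec7a, Ifi30, Mx1 and Ddit3 were not analysed here.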

Additional observations from a re-analysis of the deposited data

Results flagged for a closer look

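Each of the following differed between type 2 DC and monocytes in its genotype effect, by edgeR's test of the interaction itself. The difference (log2, type 2 DC minus monocytes) was -0.82 for Ifit3, -0.67 for Ifit2, -1.39 for Ifit1bl1 and -0.72 for Ly6a, all 4 of them interferon-induced genes. For Ccl7 it was -3.11, with 54.5 CPM in type 2 DC of WT replicate 1 and 1.25 to 9.56 CPM in the other libraries.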

How the results depend on the processing

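The counts of genes called by genotype in type 2 DC (0) were 21 with no low-count filter and 0 to 15 with 1 library left out (0 without WT replicate 1, 15 without cKO replicate 2). With the replicate block 2 genes were called; the replicate numbers are not said to pair libraries, and deviations of same-numbered libraries correlated at 0.141 over 8699 genes. The cause of these changes was not tested.

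For the interaction (5 genes) the count was 2 with DESeq2, 67 with no low-count filter, 3 with a Cd209a minimum of 3, 8 for cells of 3000 to 20000 UMIs and 3 to 29 with 1 library left out (3 without WT replicate 1, 29 without WT replicate 2, 26 without either cKO library). Genes called lower than in monocytes numbered 1150 with no low-count filter, which tests more genes. The log2 ratio of shares ran from -0.75 to -0.16 with 1 library left out.

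Genotype differences near 0 changed sign. Those of Cd209a describe the choice of cells, since it is in the gate. With cells of 3000 to 20000 UMIs Cd209a was 0.0766 and Kmo -0.00689. With 1 library left out Cd209a ran from -0.14 to 0.0934, Clec10a from -0.65 to 0.41, Kmo from -0.0395 to 0.18 and Mgl2 from -1.46 to 1.42. The other class comparisons' counts stayed within 1.5 times under the alternatives run. Each genotype comparison rests on 2 libraries per group, with 143 to 250 members in each.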
